A study of Mus musculus with 12 samples.

Results

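The chromatin of 10 genes for transcription factors of the embryonic mesenchyme was examined: Prrx2, Tbx15, Tbx18, Tcf21, Osr1, Osr2, Meox1, Meox2, Foxs1 and Foxf1. Their windows are the rows of a deposited accessibility table that overlapped the body of a gene or the 25 kb on either side of it (GENCODE M21 annotation, mouse genome mm10). The rule used positions only, and 118 of the table's 176680 windows met it, from 6 at Tbx18 and Tcf21 to 22 at Prrx2 and Tbx15. Every member gene had windows, and no filter on low values was applied.

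The study profiled primary mouse embryonic fibroblasts (MEFs) of E13.5 wild-type C57BL/6N embryos by ATAC-seq. The method lets the enzyme Tn5 cut into open chromatin and tag the cut ends for sequencing, so that open sites collect reads. All 12 libraries were taken on day 2 of doxycycline treatment from cells carrying the lentiviral transactivator rtTA, which drives the tetO transgenes, with 3 libraries in each of 4 groups. 4in1_GFP_OE received the reprogramming vector LV.4TF, called 4in1, with a GFP transgene as control, and 4in1_Prox1_OE received 4in1 with FLAG-tagged mouse Prox1. The MEF group (rtTA alone) and the Prox1_OE group (rtTA with Prox1) were not analysed here, so every value below compares 6 libraries that all carried rtTA and 4in1. Prox1 is a homeodomain transcription factor of hepatocytes, and the comparison asks what it adds to the chromatin of fibroblasts on the way to induced hepatocytes. The labels give neither the share of transduced cells nor whether the replicates were separate cultures.

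Mesenchyme is the loose embryonic tissue from which fibroblasts, cartilage, bone and smooth muscle derive, and fibroblasts in culture keep part of the code of transcription factors that marked their position in the embryo. The genes fall into 5 families by the way their proteins bind DNA. Tbx15 and Tbx18 are T-box factors, Prrx2, Meox1 and Meox2 carry homeodomains, Osr1 and Osr2 have zinc fingers, Tcf21 is a basic helix-loop-helix factor that binds E-boxes with a partner, and Foxs1 and Foxf1 are forkhead factors. Such genes are commonly controlled by many enhancers spread over their introns and the DNA around them.

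All member windows had the same short width, and the value of a window in a group was the authors' mean over the 3 libraries, a normalized read count deposited on the log2 scale. A difference is the 4in1_Prox1_OE value minus the 4in1_GFP_OE value on that scale, so that a negative difference is lower accessibility with Prox1. A mean without its libraries has no spread, so no error or test is given for any difference. The one statement that rests on replicates is the authors' call, read here from the deposited lists of regions enriched with GFP (higher without Prox1) and enriched with Prox1. In pooled cells, fewer cells with an open site and less opening in each cell cannot be told apart. The depth of each library is unknown. As a check of the cell type, all 14 fibroblast marker genes (among them Col1a1, Pdgfra and Vim) had a window within 1 kb of a start site, at 6.09 to 9.61 in 4in1_GFP_OE. The start sites of Alb, Ttr, Apoa1 and Serpina1a, which mark hepatocytes, had none (0 of 4). Windows also lay at 3 of 3 neural, 3 of 3 epithelial, 3 of 4 endothelial and 1 of 3 blood marker genes, so an open start site did not by itself separate cell types. Of the 14 fibroblast windows, 8 were listed as enriched with GFP and 0 with Prox1 (median difference -0.46), where 18.5% of the start site windows of all protein-coding genes were listed as enriched with GFP. The medians were -0.53 for the 3 endothelial windows, -0.30 for the 3 neural and 0.13 for the 3 epithelial ones, and the single blood window stood at -0.51. The part of these changes in the results below was not tested.

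The sequences of 8 windows are shown because they were among the 5 lowest and the 5 highest differences at the 10 genes, 4 of each, with windows of mean concentration above the median of the table taken first. They are read 5′ to 3′ on the plus strand of GRCm38, the assembly that mm10 names, from the RefSeq copy of the genome. Capitals mark every match to one of the 9 motifs searched, which are described further on. Each window took its name from the gene in whose locus it lay.
Tcf21, noncoding exon of Gm10824, chr10:22815861-22816061: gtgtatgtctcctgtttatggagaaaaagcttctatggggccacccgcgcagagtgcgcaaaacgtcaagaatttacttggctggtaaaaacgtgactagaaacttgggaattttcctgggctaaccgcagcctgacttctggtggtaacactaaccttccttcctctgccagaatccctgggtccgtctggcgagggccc
Osr2, intergenic, upstream of the gene, chr15:35286733-35286933: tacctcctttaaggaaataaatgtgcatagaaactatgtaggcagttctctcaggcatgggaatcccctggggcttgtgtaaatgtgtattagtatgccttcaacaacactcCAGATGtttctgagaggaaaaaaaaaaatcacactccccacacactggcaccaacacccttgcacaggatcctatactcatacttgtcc
Meox2, intron, chr12:37142128-37142328: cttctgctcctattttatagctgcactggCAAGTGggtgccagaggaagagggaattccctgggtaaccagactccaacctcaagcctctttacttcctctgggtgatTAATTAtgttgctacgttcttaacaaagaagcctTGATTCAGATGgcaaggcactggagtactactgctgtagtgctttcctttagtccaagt
Osr1, intergenic, beyond the 3′ end of the gene, chr12:9589664-9589864: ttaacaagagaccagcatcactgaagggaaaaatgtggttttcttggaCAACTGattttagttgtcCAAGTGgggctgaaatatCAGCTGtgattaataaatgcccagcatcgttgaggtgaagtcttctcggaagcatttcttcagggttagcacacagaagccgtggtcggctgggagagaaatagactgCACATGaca
Foxf1, exon of the noncoding RNA gene Fendrr, chr8:121059198-121059398: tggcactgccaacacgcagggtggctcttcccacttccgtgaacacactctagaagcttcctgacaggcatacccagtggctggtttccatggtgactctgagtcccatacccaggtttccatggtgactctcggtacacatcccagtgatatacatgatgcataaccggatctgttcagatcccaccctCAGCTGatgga
Osr2, intron of the noncoding RNA gene Gm33497, chr15:35272110-35272310: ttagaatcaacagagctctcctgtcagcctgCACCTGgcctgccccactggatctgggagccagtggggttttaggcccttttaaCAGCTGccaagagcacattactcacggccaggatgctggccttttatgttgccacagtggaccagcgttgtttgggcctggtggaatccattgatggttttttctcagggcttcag
Osr2, intron of BC048602, chr15:35325546-35325746: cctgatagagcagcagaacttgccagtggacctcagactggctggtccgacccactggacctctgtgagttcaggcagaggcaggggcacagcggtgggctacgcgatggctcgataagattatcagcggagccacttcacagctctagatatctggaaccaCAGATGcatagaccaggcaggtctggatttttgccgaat
Prrx2, noncoding exon of a Ptges transcript, chr2:30897342-30897542: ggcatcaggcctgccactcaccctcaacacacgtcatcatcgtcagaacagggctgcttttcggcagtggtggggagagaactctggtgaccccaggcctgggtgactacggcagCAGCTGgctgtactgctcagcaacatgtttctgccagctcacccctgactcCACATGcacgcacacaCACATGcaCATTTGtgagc
In the first 4 of these, normalized reads were at least 3-fold lower with Prox1. The Tcf21 window fell from 317 to 95.0, the Osr2 window from 138 to 43.6, the Meox2 window from 164 to 52.6 and the Osr1 window from 159 to 52.1. The Tcf21 window held none of the 9 motifs, and the Meox2 window held the AP-1 motif, a homeodomain motif and 2 E-boxes, one of which overlapped the AP-1 site. In the last 4, reads rose with Prox1, from 17.0 to 70.3 at Foxf1, from 61.6 to 231 and from 29.4 to 64.8 at Osr2, and from 158 to 261 at Prrx2. All 8 were in the authors' lists. E-boxes were the only motif in the 4 that rose and also in the Osr2 and Osr1 windows that fell.

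Over all 118 windows, more were listed as enriched with GFP than with Prox1. The authors listed 58 as enriched with GFP (49.2%) and 9 as enriched with Prox1 (7.63%), and 51 were in neither list. Among all windows of the table, 48.2% were listed as enriched with GFP and 14.9% with Prox1. The share listed as enriched with GFP was thus near the background of the table and is no result about these genes, and the share listed as enriched with Prox1 was below it. A difference of -1 or less was seen in 22 windows (18.6%, against 24.4% of all windows), and one of 1 or more in 4 (3.39%, against 8.33%). The median difference was -0.41 (quartiles -0.87 and -0.025, range -1.74 to 2.05), and that of all 176680 windows was -0.42. Because most windows of the table lay below 0, this shift of -0.42 is given beside the directions that follow. With it subtracted, 10 member windows were lower and 8 were higher by at least 1. Of the 118 windows, 91 lay below 0 but only 58 lay below -0.42. Among the 58 windows listed as enriched with GFP, 3 lay above -0.42. The 9 listed as enriched with Prox1 could not lie below it, since every window of that list lies above 0.

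**Figure D1:**
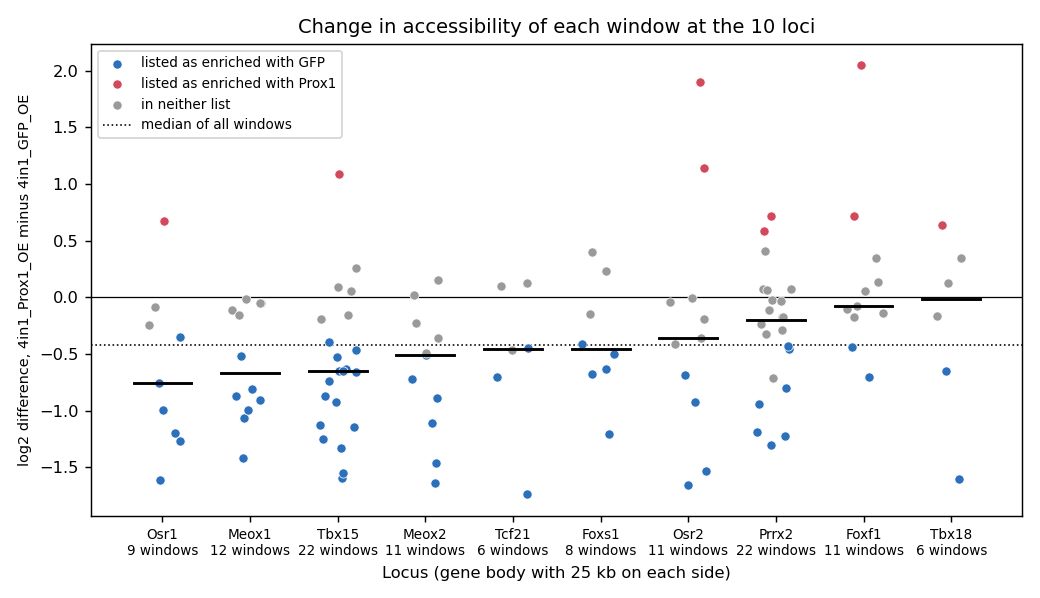
Difference in accessibility (log2, 4in1_Prox1_OE minus 4in1_GFP_OE) of each of the 118 windows, by locus, with the black bar at the locus median, colors for the authors' lists and a dotted line at the median of all windows, -0.42. The medians run from -0.75 at Osr1 to -0.016 at Tbx18; all 10 lie below 0 but only 6 lie below the dotted line.

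The reads behind the calls are given as a description, since the lists were themselves made by comparing the groups. In 4in1_GFP_OE, the 9 windows listed as enriched with Prox1 held 17.0 to 158 normalized reads (median 59.9), whereas the 58 listed as enriched with GFP held 69.7 to 628 (median 165) and the 51 in neither list had a median of 143. With Prox1, the medians were 89.7, 94.4 and 138. Of the 25% of all windows of the table with the lowest mean concentration, 29.4% were listed as enriched with Prox1, and of the 25% with the highest 2.87%. At the 10 genes these counts were 4 of 19 and 2 of 38. Among the 38 (mean concentration over 7.53), 35 lay below 0, and their median of -0.40 stood beside -0.38 for all windows in that range.

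**Figure D2:**
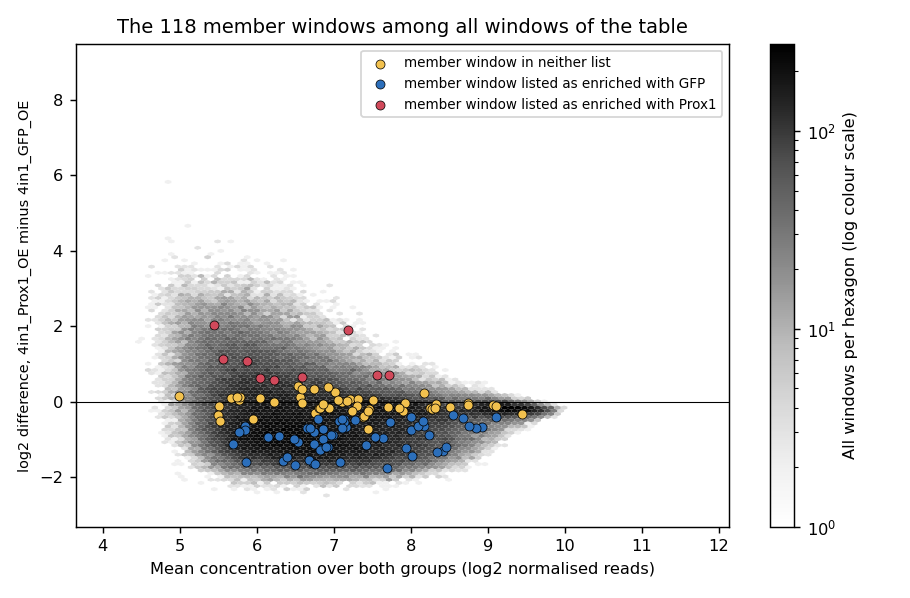
Difference in accessibility (log2) against mean concentration (log2 normalized reads over both groups) for all 176680 windows, as gray hexagons on a log color scale, with the 118 member windows as points colored by the authors' lists. The member windows lie within the cloud, the highest at 2.05 and the lowest at -1.74.

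No start site of the 10 genes changed by 1 or more. For each gene, the most accessible window within 1 kb of a start site in the basic annotation was taken. Of the 10 start site windows, 6 were listed as enriched with GFP (Prrx2, Tbx15, Tbx18, Osr1, Osr2 and Foxs1), 0 were listed as enriched with Prox1, and 0 reached a difference of 1 in either direction. Over the start site windows of 15152 protein-coding genes, 18.5% were listed as enriched with GFP, 4.91% were listed as enriched with Prox1, 2.7% had a difference of -1 or less and 1.17% had one of 1 or more. The median was -0.39 for the 10 genes and -0.19 for all protein-coding genes. Differences lay below 0 at 9 of the 10, a count that drops to 5 after subtracting the shift of all windows.

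**Figure D3:**
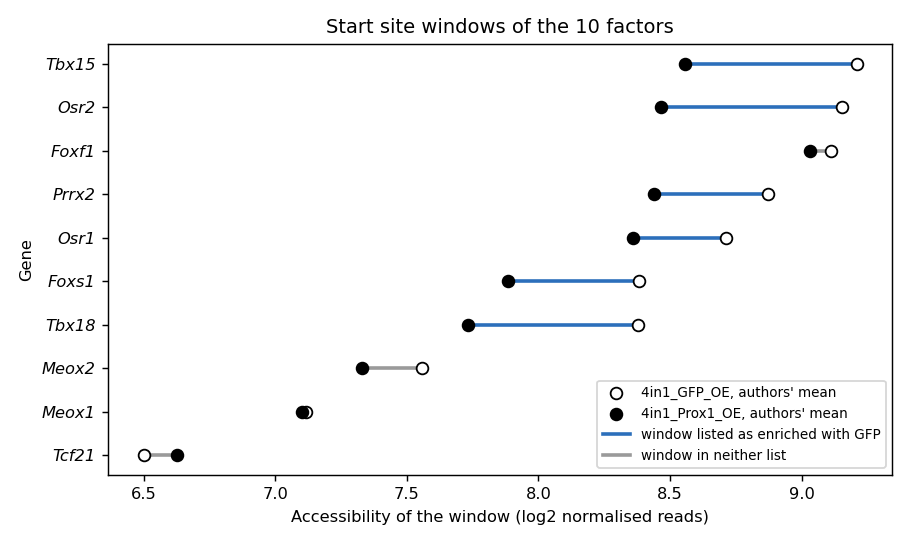
Accessibility (log2 normalized reads, the authors' group means) of the start site window of each of the 10 genes with GFP (open circles) and with Prox1 (filled circles), joined by a line colored by the authors' call. The values are lower with Prox1 at all genes but Tcf21, although at Osr1, Meox1, Meox2 and Foxf1 the drop is smaller than the median drop of all windows.

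With GFP, the most open start site was that of Tbx15, which takes part in patterning the skeleton and skin, at 592 normalized reads with GFP and 376 with Prox1 (difference -0.65). Next came Osr2, a regulator of palate growth, with 569.6 and 354 (-0.69), the largest drop of the 10. The start site of Foxf1, a factor of the mesenchyme around gut and lung, was about as open with GFP, at 553 and 523 reads (-0.078), and was in neither list. Prrx2 had 468 and 347 (-0.43), Osr1 419 and 329 (-0.35), Foxs1 333 and 236 (-0.50) and Tbx18 333 and 213 (-0.65). The 3 least open start sites were in neither list. Meox2 had 189 and 161 (-0.23), Meox1 139 and 137 (-0.015) and Tcf21 90.6 and 98.8 (0.13). The windows of Tbx15, Prrx2 and Osr1 stood at start sites inside the gene, 13.0, 10.5 and 4.52 kb downstream of the outermost one. The outermost starts of Tbx15 and Osr1 belong to transcripts outside the basic annotation that was used for start sites. At that of Osr1, a window 0.034 kb downstream went from 259 to 218 reads (-0.25) and was in neither list, unlike the window inside the gene. At the outer start of Prrx2, a window 0.803 kb upstream went from 135 to 77.9 reads (-0.80, listed as enriched with GFP) while one 0.102 kb downstream went from 79.7 to 106 (0.41, in neither list).

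**Figure D4:**
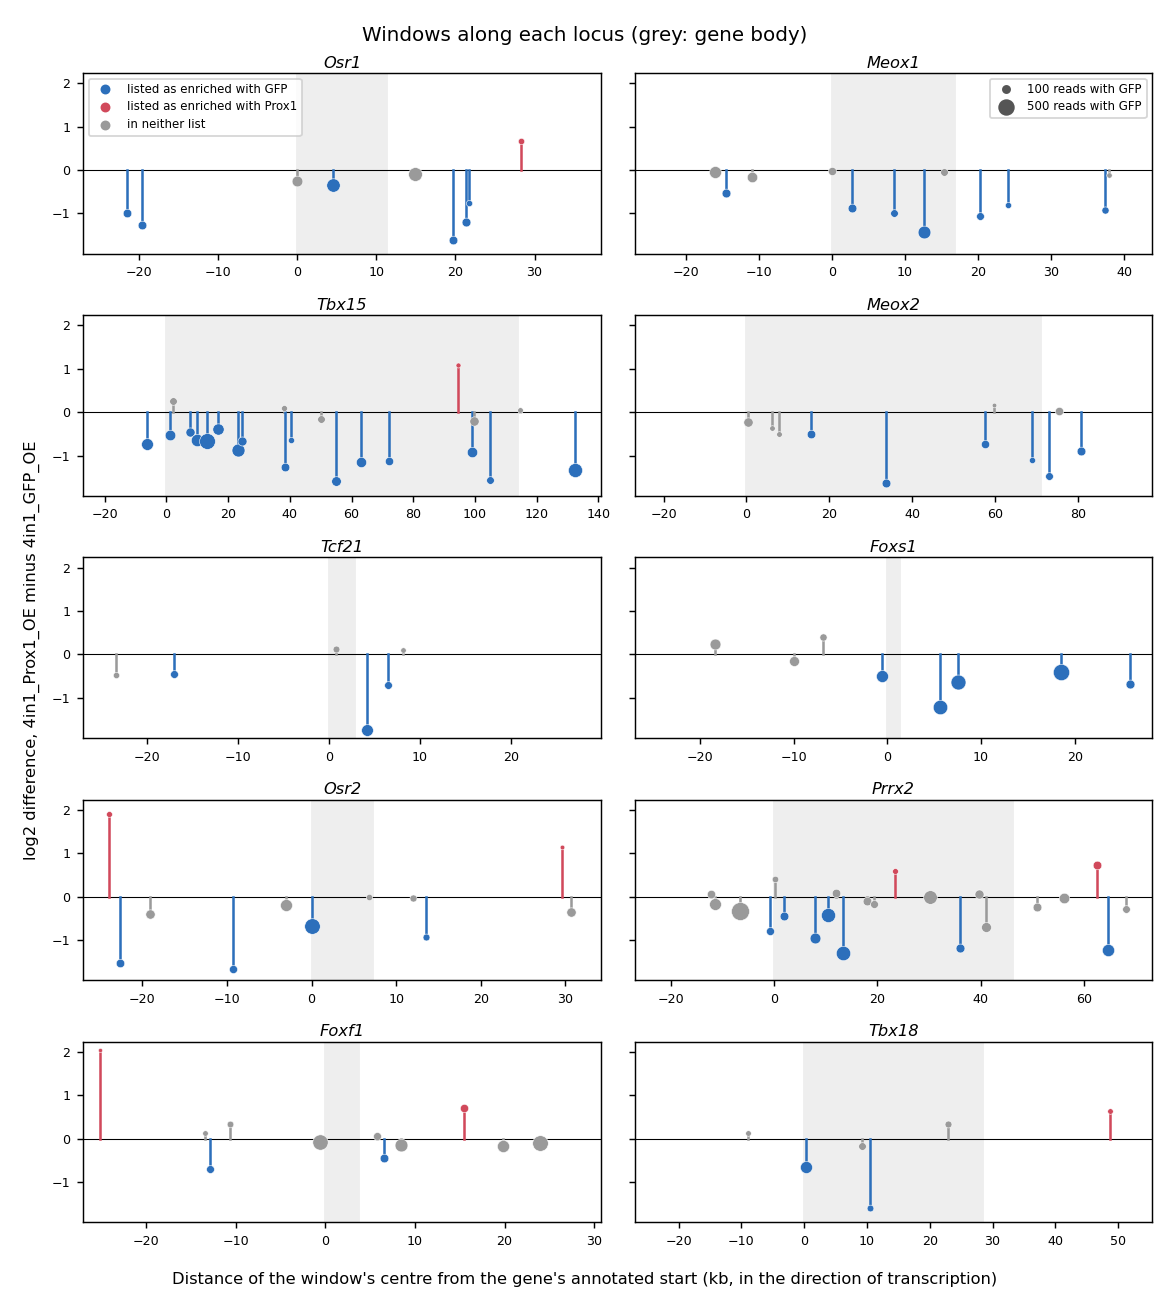
Each window of the 10 loci by the distance of its center from the annotated start of the gene (kb, positive in the direction of transcription), with its difference (log2) as height, the authors' list as color and the reads with GFP as the size of the point; gray marks the gene body. Prrx2, Tbx15, Tbx18, Osr1, Osr2 and Foxf1 hold windows of both lists, whereas Meox1, Meox2, Tcf21 and Foxs1 hold none listed as enriched with Prox1.

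Tbx15 shared with Prrx2 the largest number of windows. Of its 22 windows, 16 were listed as enriched with GFP (72.7%, against 48.2% of all windows) and 1 with Prox1 (4.55%, against 14.9%). The median was -0.65, and reads summed over its windows with Prox1 were 0.621 times those with GFP, where the sum over all windows of the table gave 0.751. Its lowest window was 55.1 kb downstream of the start, in an intron, where reads went from 203 to 67.2 (-1.59), and another lay 105 kb downstream with 121 and 41.1 reads (-1.55). Its single window listed as enriched with Prox1, also intronic, lay 94.6 kb downstream and went from 37.6 to 80.1 reads (1.09). Beyond the 3′ end, a window 132 kb downstream of the start went from 463 to 184 (-1.33). Tbx18, which acts in the somites, the epicardium and the mesenchyme of the ureter, had only 6 windows, with 2 listed as enriched with GFP (33.3%), 1 with Prox1 (16.7%) and a median of -0.016. The 2 were the start site window and an intronic window 10.5 kb downstream, one of the 5 lowest of all loci, which went from 87.6 to 28.9 reads (-1.60). The window listed as enriched with Prox1 lay 48.8 kb downstream of the start and went from 51.6 to 80.6 reads (0.64).

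Among the homeodomain genes, Meox1 and Meox2, factors of the somites and their derivatives, had windows listed as enriched with GFP in their introns and flanks but not at their start sites. All 12 windows of Meox1 lay below 0 and 7 of them lay below -0.42, and 7 were listed as enriched with GFP (58.3%, against 48.2% of all windows) and 0 with Prox1 (14.9% of all windows), with a median of -0.66. Its lowest window, in an intron 12.6 kb downstream of the start, went from 375 to 140.0 reads (-1.42). Its most accessible window, 16.0 kb upstream, stayed at 328 and 317 (-0.047). At Meox2, 6 of 11 windows were listed as enriched with GFP (54.5%) and 0 with Prox1, and the median was -0.51. Its lowest window is the intronic one printed above (-1.64), and the next lowest, 73.0 kb downstream and nearer to the start site of the neighboring gene Agmo, went from 123 to 44.8 reads (-1.46). The highest window of Meox2 had 30.0 and 33.4 reads (0.15) and was in neither list. Beyond the 25 kb limit, the nearest window on each side of Meox2 was listed as enriched with Prox1. These lay 27200 and 40833 bases from the gene body (1.67 and 0.95). Prrx2, a paired-related factor of limb and craniofacial mesenchyme, had 22 windows, of which 7 were listed as enriched with GFP (31.8%) and 2 with Prox1 (9.09%), with a median of -0.20. Its lowest window, in an intron 13.4 kb downstream of the outer start, went from 488 to 198 reads (-1.30). Its most accessible window, 6.62 kb upstream in an exon of Asb6, had 770.0 and 616 reads (-0.32) and was in neither list. Of the 22 windows, 12 were nearest to the start site of Prrx2, and the rest were nearest to those of other genes.

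The zinc-finger genes Osr1 and Osr2 each held windows of both lists. Osr1, a factor of the intermediate mesoderm and the kidney, had the lowest median with the 25 kb flank (-0.75). With a 10 kb flank its median was -0.35 and that of Meox1 was the lowest (-0.87). Of the 9 Osr1 windows, 6 were listed as enriched with GFP (66.7%, against 48.2% of all windows) and 1 with Prox1 (11.1%, against 14.9%). The 3 deepest losses lay outside the gene. Reads went from 159.9 to 66.5 (-1.27) at 19.5 kb upstream, from 159 to 52.1 (-1.61) at 19.6 kb downstream and from 167 to 72.7 (-1.20) at 21.3 kb downstream. Its most accessible window, 14.9 kb downstream, stayed at 440.3 and 415 (-0.085), and its gain, 28.3 kb downstream, went from 74.3 to 118 reads (0.67). At Osr2, 4 of 11 windows were listed as enriched with GFP (36.4%) and 2 with Prox1 (18.2%), with a median of -0.36. The window 23.9 kb upstream, printed above, had the second highest difference of the 118 (1.90). The window next to it, 22.6 kb upstream, went from 152 to 52.4 reads (-1.54), although the starts of the pair were 1267 bases apart. This locus held 2 of the 4 windows with a difference of 1 or more, so that without it 2 such windows remained.

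Other neighbors also stood in opposite lists. Of 108 pairs of windows that followed each other within a locus, 26 were both listed as enriched with GFP (24.1%), 0 were both listed as enriched with Prox1 and 6 stood in opposite lists (5.56%). Over the whole table, 157984 pairs of successive windows had starts no farther apart than those of the member pairs (25.9 kb), and the shares were 26.2%, 3.00% and 11.9%. The share of both with GFP was thus near that of the table, and opposite lists were a smaller share at the 10 genes than in the table. An opposite pair needs a window listed as enriched with Prox1, and such windows were themselves a smaller share (7.63%, against 14.9%). How much of the smaller share of pairs goes with this was not tested. The closest opposite pair after that at Osr2 was at the Ptges end of the Prrx2 locus, where starts were 2109 bases apart. There reads went from 158 to 261 (0.72) in one window and from 343 to 147 (-1.22) in the other. These pairs were looked for after the values had been seen.

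Tcf21, a factor of the epicardium and of lung and kidney mesenchyme, had 6 windows, with 3 listed as enriched with GFP (48.2% of all windows), 0 with Prox1 (14.9% of all windows) and a median of -0.46. The lowest difference of all 118 windows (-1.74) was found 4.21 kb downstream of its start, just beyond its 3′ end, in an exon of the noncoding gene Gm10824. That window lay within 1 kb of a start site of a gene other than Tcf21. This was also the most accessible window of the locus with GFP, at 317 reads, and the sum over the locus with Prox1 was 0.600 times that with GFP (0.751 for the whole table). The start site window of Tcf21 held 90.6 reads and had the highest difference of its locus (0.13).

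For the forkhead genes the calls are again to be read beside the 48.2% and 14.9% of all windows listed as enriched with GFP and with Prox1. At Foxs1, a factor of pericytes and of neural crest derivatives, 5 of 8 windows were listed as enriched with GFP (62.5%) and 0 with Prox1 (median -0.45). All 5 lay at the start site or downstream of it, and the 3 upstream of it toward Dusp15 had differences from -0.14 to 0.40. Its lowest window, 5.60 kb downstream, went from 490.4 to 213 reads (-1.20). Its most accessible window lay in an intron of Mylk2 and went from 628 to 473 (-0.41). At Foxf1, the summed reads with Prox1 were 0.979 times those with GFP, above the 0.751 of the whole table. Of its 11 windows, 2 were listed as enriched with GFP (18.2%), 2 were listed as enriched with Prox1 (18.2%) and 7 were in neither list (median -0.078). The counts of both genes are small, and no difference between them was tested. Its lowest window, 12.8 kb upstream in an intron of Fendrr, went from 129 to 78.8 reads (-0.71). Its most accessible window, 24.0 kb downstream, stayed at 571 and 533 (-0.10). The highest difference of all 118 windows (2.05) lay 25.1 kb upstream in an exon of Fendrr, on low values of 17.0 and 70.3 reads. That window and one 15.5 kb downstream, which went from 144 to 236 reads (0.71), were the 2 listed as enriched with Prox1.

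With the 25 kb flank, the order of the loci by median difference was Osr1, Meox1, Tbx15, Meox2, Tcf21, Foxs1, Osr2, Prrx2, Foxf1 and Tbx18. The first 6 lay below the median of all windows (-0.42) and the other 4 above it. Both the order and this split depended on the flank. With 10 kb, Osr1 (-0.35) and Tcf21 (-0.30) lay above that median and Osr2 (-0.44) below it. With 50 kb, Tcf21 (-0.16), Meox1 (-0.41) and Foxs1 (-0.41) lay above it. Over loci of 6 to 22 windows, the share listed as enriched with GFP ran from 18.2% at Foxf1 to 72.7% at Tbx15 (48.2% of all windows) and the share listed as enriched with Prox1 from 0 at 4 genes to 18.2% at Osr2 and Foxf1 (14.9% of all windows). No error can be given to these medians, and neighbors in the order are not claimed to differ. The rule was cut at 25 kb from the gene body. In each flank, the outermost windows inside the limit had a median of -0.10 (19 windows), and the nearest windows outside it had a median of -0.52 (20 windows). The Foxf1 window with the difference of 2.05 was 24988 bases from the gene body and so just inside. The nearest window beyond it had 29.7 and 40.1 reads (0.44).

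Windows near start sites were compared with the others. The 19 windows within 1 kb of the start site of any gene had a median of -0.29 (-0.21 for all such windows), and the 99 others had one of -0.44 (-0.49 for all others). All 9 windows listed as enriched with Prox1 were among the 99 (9.09%), where the table gave 8.34% of the windows near start sites and 15.8% of the others. With only 19 windows near start sites, nothing is read from the 0 among them. Windows inside the gene bodies had a median of -0.48 (54 windows), with 30 listed as enriched with GFP (55.6%) and 2 with Prox1 (3.70%), and those in the flanks had -0.31 (64 windows), with 28 (43.8%) and 7 (10.9%). Both GFP shares lay near the 48.2% of all windows. Where the nearest start site was that of the member gene itself (97 windows) the median was -0.46, and where it was that of another gene (21 windows) it was -0.18. By annotation, 61 windows were intronic, 36 intergenic, 13 in untranslated and 5 in noncoding exons and 3 in coding exons. Of the intronic windows 32 were listed as enriched with GFP (52.5%) and 5 with Prox1 (8.20%), where all intronic windows of the table gave 51.1% and 15.2%. Of the intergenic ones 21 (58.3%) and 2 (5.56%) were so listed, where the table gave 48.4% and 14.9%.

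The windows were searched on both strands for 9 short motifs. Those given by letters are AP-1 (TGANTCA), TEAD (GGAATG), the E-box (CANNTG), forkhead (TGTTTAC), homeodomain (TAATTA) and T-box (AGGTGT). EBF was searched as its palindromic consensus, and CTCF and Prox1 as consensus sequences with at most 1 mismatch. AP-1 is the Fos and Jun family that opens enhancers in fibroblasts and other growing cells. Its motif was in 23 member windows (19.5%, against 28.8% of all windows). These had a median difference of -0.92 and 16 were listed as enriched with GFP, whereas the 95 without it had a median of -0.29. Over the whole table, the medians with and without it were -0.82 and -0.29, and 67.0% of the windows with it were listed as enriched with GFP. The TEAD motif, bound by the partners of the Hippo pathway, was in 19 windows (16.1%, against 20.1%), with a median of -0.74 and 13 listed as enriched with GFP. Of all windows with it, 57.8% were so listed, with a median of -0.64. Windows with the CTCF motif, bound by the insulator protein CTCF, numbered 9 (7.63%, against 7.75%), with a median of -0.18.

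Motifs named for the families of these factors were also searched, with counts taken over the windows of all loci together. These are thus not counts at the genes of the same family. T-box matches lay at Tbx15, Prrx2, Osr1, Osr2, Meox2 and Foxf1 but not at Tbx18. The forkhead match lay at Meox1, and not at Foxs1 or Foxf1. The T-box motif was in 9 windows (7.63%, against 8.10%), of which 6 were listed as enriched with GFP (median -0.80). Of all windows with that motif 39.7% were so listed, with a median of -0.24. The E-box was in 72.9% (against 68.9%), the homeodomain motif in 3 windows (2.54%, against 2.84%), the forkhead motif in 1 (0.847%, against 2.65%) and the EBF motif in 0 (0.877% of all windows). The Prox1 motif was in 1 member window, the Osr2 window 30.7 kb downstream with 189.7 and 147 reads (-0.36, in neither list), against 0.305% of all windows. With a match this rare in the whole table, nothing is read from that count about where Prox1 binds. A match is a description of the letters only. E-boxes are so short that they were found in most windows, and an AP-1 or E-box match can overlap another motif.

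**Figure D5:**
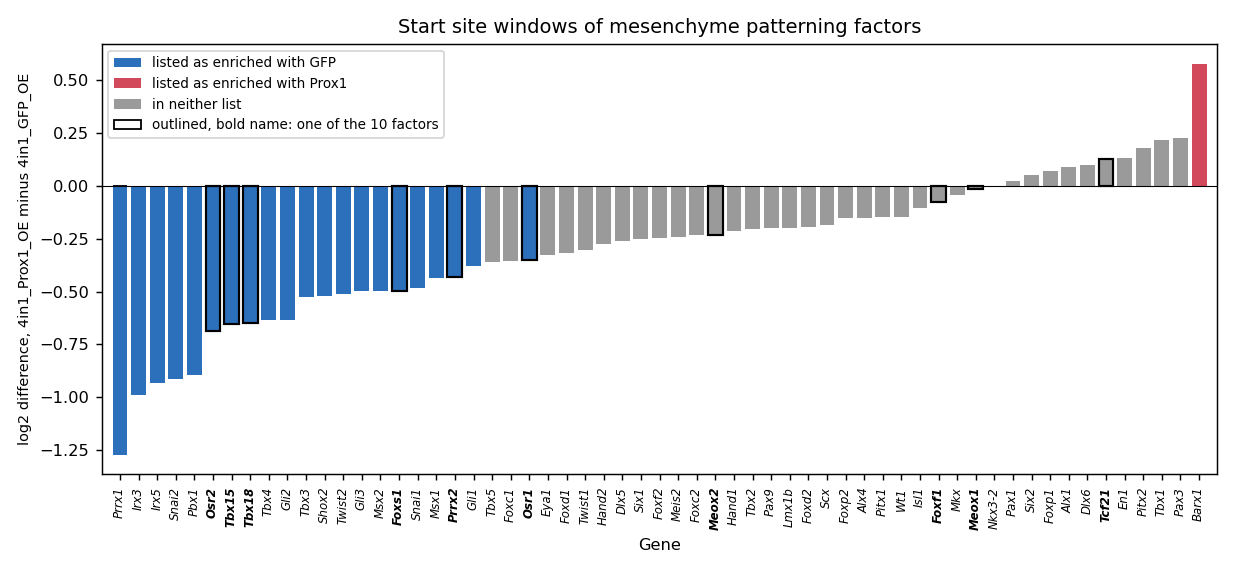
Difference (log2) at the start site window of the 10 genes (outlined, bold) and of other mesenchyme patterning factors, in order, colored by the authors' lists. The 10 genes run from -0.69 at Osr2 to 0.13 at Tcf21, within the range of the others, -1.27 to 0.58.

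A list of 52 other mesenchyme patterning factors gave the surroundings of these genes, and 50 of them (all but Foxl1 and Meis1) had a start site window. Of the 50, 15 were listed as enriched with GFP (18.5% of the start site windows of all protein-coding genes), 1 was listed as enriched with Prox1 (4.91% of those windows) and 34 were in neither list. The median difference was -0.24, beside -0.19 for all protein-coding genes. A difference of -1 or less was found at 1 of them, Prrx1, the close relative of Prrx2 in limb mesenchyme, at 317 reads with GFP and 131 with Prox1 (-1.27). With start sites taken within 2 kb, the most accessible window of each gene could be another one, and 0 of 51 genes had such a difference. It was followed by Irx3 (-0.99) and Irx5 (-0.93), neighbors in a cluster of homeodomain genes, and by Snai2 (-0.92), a repressor of epithelial genes. The highest were Barx1 (0.58), a homeodomain factor of tooth and stomach mesenchyme and the one listed as enriched with Prox1, then Pax3 (0.23) and Tbx1 (0.21), both in neither list. The loci of these 52 genes were taken by the same rule, without the windows already counted at the 10 genes. They held 759 windows with a median of -0.33. Of these, 43.6% were listed as enriched with GFP and 13.2% with Prox1, beside 49.2% and 7.63% for the 10 genes.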

How the data were processed

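Per the study's methods and the submitters' processing notes, the authors used Trimmomatic 0.38 for trimming, Bowtie2 2.3.4.3 for alignment to mm10 and, for cleaning, SAMtools 1.10, Picard 2.18.16 and bedtools 2.27.1. The methods name MACS2 (2.1.2) as the peak caller and the study's reporting summary names Genrich. The caller is therefore uncertain, and whether peaks were called in each library is not given in the sources used here. DiffBind 3.4.11 counted reads in windows at peak summits. The authors deposited log2 mean normalized read counts of each window, over both groups and within each, with a normalization setting that is not given in the sources used here. They also deposited their own fold change, p-value and FDR, which were not used, and the positions of the windows enriched in each group, at an adjusted P limit of 0.05 per the methods. The number of other columns of values per sample was 0.

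Differences of the deposited log2 group means were computed here. Libraries were grouped by their titles. Genes, start sites (basic transcripts for start sites) and sequence came from GENCODE M21 and GRCm38. The 10 genes and all lists were chosen with earlier results of these data known. The genes were all named, with the start site window, the lowest, the highest and the most accessible window of each, the 5 lowest and highest windows overall and the 4 lowest and highest start sites of the other factors, of which 1 is not reported here. Motifs were consensus sequences written from general knowledge. Python 3.11.15 was used with pysam 0.24.0 for sequence, pandas 2.3.3 and numpy 2.4.6 for tables, scipy 1.17.1 and matplotlib 3.10.9, and the selection steps were tested on simulated data. Alternatives were other flanks, the nearest start site, a filter on low values, 4 centrings and a pseudocount of 10 reads.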

Additional observations from a re-analysis of the deposited data

How the results depend on the processing

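No paired analysis was possible because each group is represented by its mean alone, and so leaving out each replicate and a replicate block were not run. Centred on the median of all windows, the median of the member windows was 0.0074, and scaled to equal totals it was 0.0024. Both centrings gave 10 windows lower and 8 higher by at least 1, with 5 of 10 start site windows and 6 of 10 locus medians below 0. The start site window of Osr1 then stood at 0.066 and 0.061. Centred on the most accessible 10% of windows, the median was -0.15 with 13 windows lower by at least 1. Centred on promoter windows, a shift of -0.21, the median was -0.20, the counts stayed within 1.5 times the main ones and 3 locus medians lay above 0, those of Prrx2 (0.013), Foxf1 (0.14) and Tbx18 (0.20).

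Other settings moved the counts. Without a flank, 54 windows were left, of which 30 were listed as enriched with GFP and 2 with Prox1, 11 were lower and 1 was higher by at least 1. With 10 kb, 2 were listed as enriched with Prox1 and 1 was higher by at least 1. With 50 kb, these counts were 16 and 9. Without the 25% of windows of lowest concentration they were 5 and 1, and with a pseudocount of 10 reads 2 windows were higher by at least 1. Thresholds of 0.5 gave 50 lower and 9 higher windows, and thresholds of 2 gave 0 and 1. Leaving out 1 locus at a time gave medians from -0.46 to -0.34, 42 to 56 windows listed as enriched with GFP, 7 to 9 with Prox1, and 16 to 22 lower by at least 1. Windows higher by at least 1 numbered 2 to 4, with 2 when Osr2 was left out. With start sites taken within 2 kb, 0 of the other factors were lower by at least 1. The locus medians and their order also moved with the flank. Without a flank, 8 loci held windows (all but Foxs1 and Foxf1) and 7 medians lay below 0. Osr1 then stood at -0.30, Tbx18 at -0.40, Meox1 at -0.87 and Tcf21 at 0.13 on 1 window. With 10 kb, Meox1 was again the lowest (-0.87) and Osr1 stood at -0.35. The cause of these changes was not tested beyond the choice of windows itself.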

Other observations

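The Foxf1 window with the highest difference, printed above, holds an 18-base direct repeat that begins at positions 83 and 115 of the window. A direct repeat of that length was found in 1.82% of all windows. The repeat was noticed after the sequence had been read, and its part in the difference was not tested.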
